A study of Homo sapiens with 6 samples.

Results

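The genes described here are 47 interferon-stimulated and RNA-sensing genes, compared between control and MTR4 knockdown (MTR4 KD) cells. They were taken by symbol from a list whose rule uses no measured value, and all 47 had a row among the 60675 genes of the count files. The cells were PLC/PRF5, an established human hepatocellular carcinoma (HCC) line, and RNA-seq was made of 3 control and 3 MTR4 KD libraries. The control group was labelled as wild PLC/PRF5 and the other group as MTR4 knockdown, and the study describes isogenic cells before and after an inducible shRNA against MTR4 was switched on. The labels do not say for each library whether a control was uninduced, carried a scramble shRNA or was given the inducer, so an effect of the inducer or the shRNA and the loss of MTR4 cannot be told apart. Nothing in the sources used here says that the replicates were separate cultures, so p-values measure only the spread between these libraries. MTR4 is a nuclear RNA helicase that feeds RNA to the exosome for decay, and the comparison asks whether its partial loss was accompanied by a change in the genes of the innate RNA response.

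In this response, cytosolic sensors such as MDA5 (IFIH1) and RIG-I bind double-stranded RNA and signal through MAVS to the transcription factors that switch on interferon genes. Secreted type I and type III interferons then act on surface receptors, and the JAK kinases activate a complex that holds STAT2 and IRF9 and binds the interferon-stimulated response element (ISRE) in the promoters of target genes. The targets include the sensors themselves, enzymes that degrade or edit RNA, membrane proteins that block virus entry or release, and the ubiquitin-like protein ISG15. Many cells express part of this set at a low level without added interferon.

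The ISRE core, spelled GAAA, any 2 bases and GAAA, on either strand, is shown for a few of the genes that hold it near their start. Promoter windows of RefSeq on GRCh38.p14, reaching from 250 bases before to 50 bases after an annotated start, were matched for 38 of the 47 genes. Among these, 25 (65.8%) held the core in at least 1 window, against 4.38% of the 27303 genes with a window. The GAS core, spelled TTC, any 3 bases and GAA, which reads the same on both strands and belongs to promoters that respond to interferon gamma, was in 11 of the 38 (28.9%) against 9.38% of all genes. The sequences are written 5′ to 3′ on the strand of the gene, in lower case with the core in capitals, and a core that begins with TTTC is the same motif read on the other strand. ISG15 and IFIT1 are classical targets. ISG20, IFITM3, BST2 and SAMD9 are the genes with a core whose RNA was lower in MTR4 KD in at least 1 of the fits given further on. DTX3L and PARP9 are neighbours whose starts face away from each other and share a single core.
ISG15: tcgggaaaggGAAACCGAAActgaagccaa
IFIT1: cactttccccTTTCGGTTTCcctaggtttc
ISG20: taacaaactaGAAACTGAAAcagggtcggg
IFITM3: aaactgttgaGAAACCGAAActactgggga
BST2: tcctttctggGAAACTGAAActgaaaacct
SAMD9: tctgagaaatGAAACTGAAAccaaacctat
DTX3L: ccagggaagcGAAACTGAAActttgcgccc
PARP9: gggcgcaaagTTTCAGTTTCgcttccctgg
On GRCh38.p14 the stretches lie at chr1:1013380-1013409 (plus strand) for ISG15, chr10:89392510-89392539 (plus) for IFIT1, chr15:88638937-88638966 (plus) for ISG20 and chr11:320876-320905 (minus) for IFITM3. Those of BST2 and SAMD9 lie at chr19:17405741-17405770 (minus) and chr7:93118096-93118125 (minus), and that of DTX3L (plus) and PARP9 (minus) at chr3:122564322-122564351. A match describes the letters of the window and does not show that a factor was bound there.

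MTR4 itself (gene symbol MTREX) had 72.2, 87.4 and 74.4 CPM in the control libraries and 44.6, 48.8 and 44.1 CPM in the knockdown libraries, each in the order of replicates 1, 2 and 3. CPM are counts per 1000000 reads of a library whose size was scaled with edgeR's TMM factors. Its log2 fold change was -0.77 (SE 0.0897), 0.588-fold of the control, with an adjusted p of 0.00641 in edgeR's quasi-likelihood test. Between 60686786 and 72708682 reads per library lay on genes, so that 3 reads correspond to 0.0414 to 0.0497 CPM. The libraries differed in the share of reads with a non-unique alignment, which was 34.7% to 37.5% in 3 of them (replicates 1 and 3 of the controls, replicate 3 of MTR4 KD) and 14.8% to 18.2% in the other 3. Membership in either set of libraries is called the alignment class below (more or fewer non-unique reads). It was not named in the labels, and each class held libraries of both conditions. The labelled cell type was checked by its markers, and all 10 hepatocyte genes on the marker list were measured, with ALB at 740 to 953 CPM and SERPINA1 at 8406 to 11457 CPM. Of these, ALB, APOA1 and TTR rose and KRT18 fell with MTR4 KD (log2 fold changes of 0.29, 0.52, 0.88 and -0.26). Reads of other cell types were few. PTPRC, which marks leukocytes, had 6, 0 and 109 reads in the controls and 8, 5 and 33 in MTR4 KD, and CD3E, which marks T cells, had 1, 0 and 31 reads and 0, 0 and 25 reads, so both were highest in replicate 3 of each group. MS4A1 and CLEC4C had at most 2 reads in any library. The 10 leukocyte genes together had 27.3 to 37.1 CPM, mostly from LYZ (none of the 4 tested passed with condition only, and LYZ and CD14 fell by 0.26 and 1.43 on the log2 scale with the alignment class as a covariate), and the 6 stromal and endothelial genes with a row had 2.95 to 9.94 CPM. Among the stromal genes, COL1A2 had 28, 338 and 30 reads in the controls and 2, 3 and 63 reads in MTR4 KD. It was thus highest in control replicate 2. Whether other cells or their RNA had a part in the results was not tested.

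None of the 42 tested genes of the list rose in MTR4 KD at an adjusted p under 0.05 with condition only. In that fit 2 fell, IFITM2 and ISG20. Of the 47 genes, 42 passed the filter on low counts (edgeR's filterByExpr, with a minimum count of 10) and 5 did not. Over all 18075 genes tested, 267 (1.48%) rose and 383 (2.12%) fell, so the 2 of 42 that fell (4.76%) are to be read against 2.12%. At an unadjusted p under 0.05, 1 of the 42 was higher (TRIM25, 2.38%, against 8.93% of all genes) and 8 were lower (BST2, DHX58, IFITM2, IFITM3, ISG20, OAS1, PSMB8 and SAMD9, 19%, against 9.84%). DESeq2's Wald test called 0 of the 42 higher and 5 lower (IFITM2, IFITM3, ISG20, OAS1 and SAMD9), where it called 2.61% of all genes higher and 3.63% lower. With limma-voom 0 were higher and 2 lower, against 1.38% and 2% of all genes. With a fold change over 2 also required, IFITM2 alone was lower (1 of 42, 2.38%, against 0.509% of all genes) and none was higher. The log2 fold changes of the 42 ran from -1.06 to 0.29 with a median of -0.07, against a median of 0.01 over all genes, and 17 were above and 25 below 0 (48.9% of all genes were below). In bulk RNA, fewer cells with a transcript and less of it per cell cannot be told apart.

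The confidence intervals describe the rise that the data still allow for each of the 42 tested genes. Each interval was taken for 1 gene alone and not for all 42 jointly, and the 5 genes under the filter are not covered. The upper end of the 95% confidence interval lay under a 2-fold rise for 39 of the 42 (85.3% of all genes tested). The others were OAS2, TRIM22 and IRF9. Together the 47 genes took 0.217% to 0.250% of the reads on genes in a library, with 0.230% to 0.250% in the controls and 0.217% to 0.225% in MTR4 KD. Per kilobase of all annotated exons, a crude length that joins every isoform, the highest control levels were those of IFITM3 (285 CPM per kb), LGALS3BP (102), ISG15 (88.4), BST2 (72.8) and IFI6 (55.4). TRIM22 had the lowest level among the genes tested (0.0198 CPM per kb). The list thus spanned genes with a high RNA level in PLC/PRF5 cells and genes near the limit of detection.

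**Figure D1:**
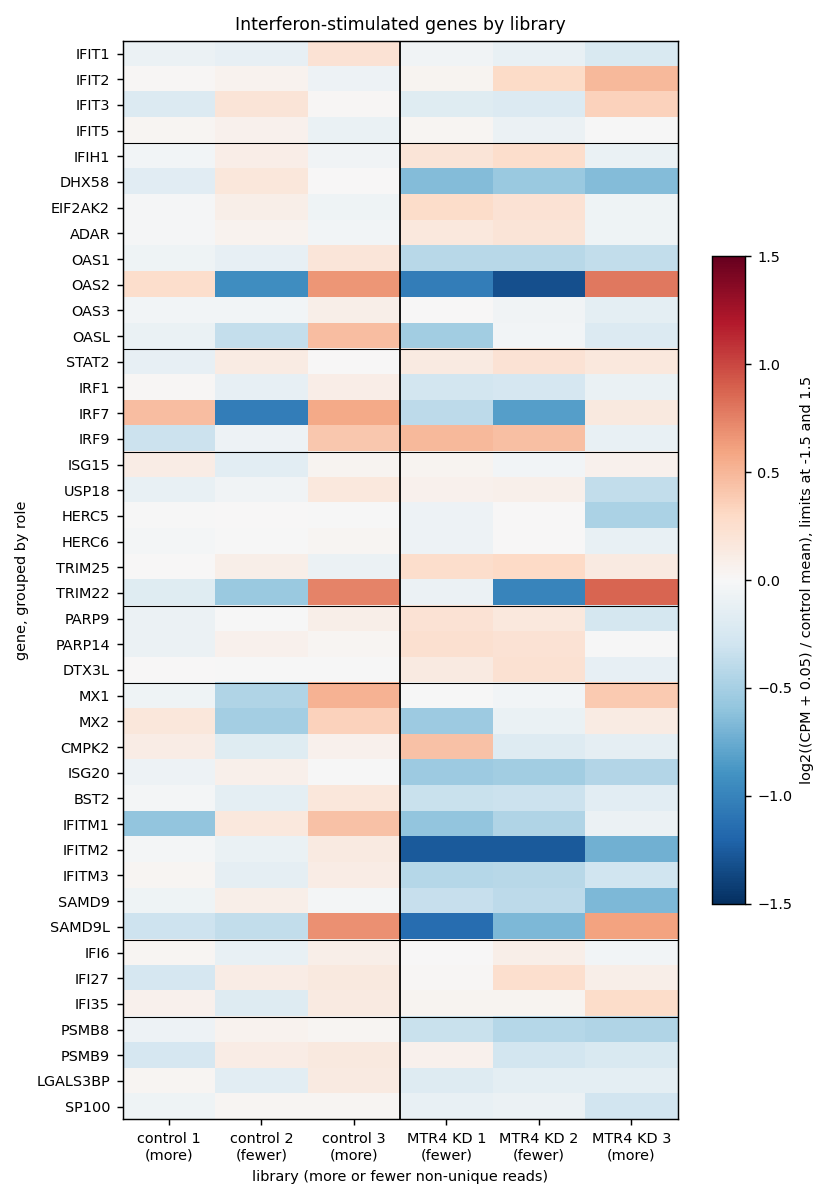
Each row is 1 of the 42 tested genes, grouped by role, and each column is a library, with its alignment class in brackets. Colour is the log2 ratio of CPM plus 0.05 to the mean of the 3 controls. IFITM2, ISG20, IFITM3, OAS1, SAMD9, BST2, DHX58, PSMB8 and SP100 are below every control in all 3 MTR4 KD libraries (21.4%, against 12.6% of all genes). STAT2 and TRIM25 are above every control in all 3 (4.76%, against 12.1% of all genes). OAS2, IRF7 and SAMD9L are higher in the libraries with more non-unique reads.

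With the alignment class as a covariate, 2 of the 42 genes rose (4.76%), IFI35 and TRIM25, and 7 fell (16.7%), BST2, IFITM2, IFITM3, ISG20, OAS1, SAMD9 and SP100. In that fit 9.43% of all genes rose and 10.8% fell. None of the 9 passed a fold change of 2 there, since IFITM2 had a log2 fold change of -0.97 (SE 0.0838). The median over the 42 was -0.03 (0.01 over all genes), and the upper end of the interval was under 2-fold for 41 of them (87.8% of all genes), TRIM22 being the exception. Every MTR4 KD library lay below every control library for 9 of the 42 (21.4%, against 12.6% of all genes), which adds DHX58 and PSMB8 to the 7 that fell. Every MTR4 KD library lay above every control for 2 (4.76%, against 12.1% of all genes), STAT2 and TRIM25. Within the class with more non-unique reads the median log2 difference was -0.14, within the other class 0.02, and 23 of the 42 genes had the same sign in both (67.9% of all genes did).

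**Figure D2:**
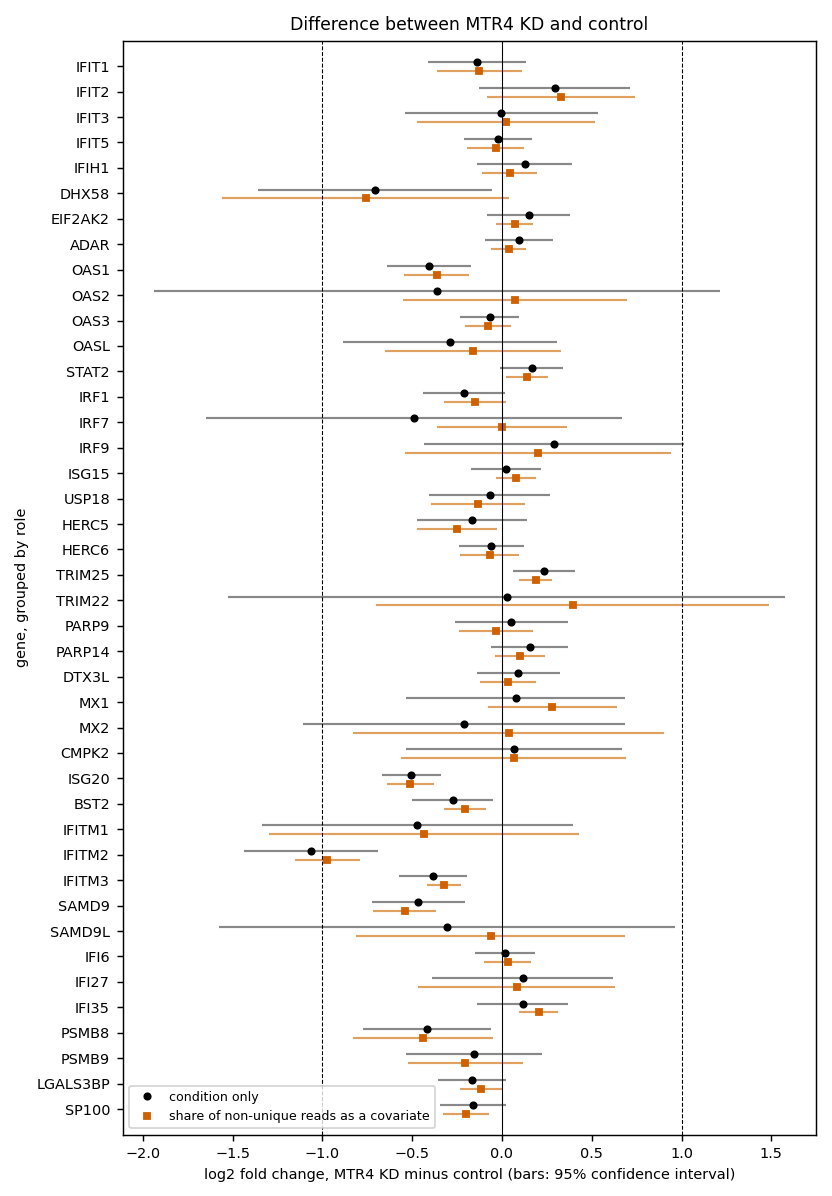
Points are log2 fold changes of the 42 tested genes, MTR4 KD minus control. Black circles are the fit with condition only, and orange squares the fit with the alignment class (more or fewer non-unique reads) as a covariate. Bars are 95% confidence intervals, dashed lines mark a 2-fold change, and the black points run from -1.06 (IFITM2) to 0.29 (IFIT2).

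The membrane proteins of the IFITM family, which hinder the entry of enveloped viruses, held the largest fall. IFITM2 (chromosome 11, positions 307816 to 309395 on GRCh38.p14) had 29.7, 28.4 and 33.3 CPM in the controls and 12.6, 12.7 and 18.4 CPM in MTR4 KD, in the order of the replicate numbers as in all sentences that follow. The groups did not overlap, and the third MTR4 KD library, which is of the class with more non-unique reads, was the nearest to the controls. The means were 30.5 ± 2.53 and 14.6 ± 3.32 CPM (SD, n = 3 each). The log2 fold change was -1.06 (SE 0.159, adjusted p = 0.0155 in edgeR's quasi-likelihood test). Taken within a class, the difference was -0.77 for the class with more non-unique reads and -1.16 for the other.

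IFITM3 (chromosome 11, positions 319676 to 320860) had 827, 733 and 869 CPM in the controls and 602, 603 and 658 CPM in MTR4 KD. These groups did not overlap either. Its log2 fold change of -0.38 (SE 0.0806) missed the threshold with condition only (adjusted p = 0.0513) and passed with the alignment class as a covariate, where the log2 fold change was -0.32 (SE 0.0438, adjusted p = 2e-04 in edgeR's quasi-likelihood test). IFITM1, between them on the chromosome (positions 314040 to 315272), was near the limit of detection, with 0.308 to 0.680 CPM in the controls and 0.310 to 0.457 CPM in MTR4 KD. The 3 genes are close copies of each other. Reads that align to several places were not counted, so the split of reads between them is uncertain, and IFITM2 and IFITM3 also had more CPM in the class with more non-unique reads (log2 differences of 0.33 and 0.17).

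ISG20, an exonuclease that degrades RNA (chromosome 15, positions 88635632 to 88656483), had 34.8, 38.6 and 36.6 CPM in the controls and 25.2, 25.4 and 27.0 CPM in MTR4 KD. The groups were apart by more than the spread within either, with means of 36.7 ± 1.89 and 25.9 ± 0.981 CPM (SD, n = 3 each). The log2 fold change was -0.51 (SE 0.0701, adjusted p = 0.0120 in edgeR's quasi-likelihood test), and it was -0.40 and -0.61 within the classes with more and fewer non-unique reads. The alignment class itself made little difference to this gene (log2 difference of -0.01).

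Each call was lost when certain single libraries were left out and kept when others were. Without control replicate 2 all controls were of the class with more non-unique reads. Without MTR4 KD replicate 3 all MTR4 KD libraries were of the other class. Condition and alignment class are harder to tell apart in these settings. IFITM2 passed without control replicate 2 (adjusted p = 0.0206) or MTR4 KD replicate 3 (0.00275), and it missed the threshold without control replicate 1 (adjusted p = 0.0832), without control replicate 3 (0.0865), without MTR4 KD replicate 1 (0.0870) or without MTR4 KD replicate 2 (0.0952), while its log2 fold change stayed between -1.27 and -0.97. ISG20 passed without control replicate 1 (adjusted p = 0.0499), control replicate 2 (0.0235) or MTR4 KD replicate 3 (0.0178), and it missed the threshold without control replicate 3 (adjusted p = 0.0652), MTR4 KD replicate 1 (0.0915) or MTR4 KD replicate 2 (0.0893), with log2 fold changes of -0.54 to -0.47 whichever library was left out. Without the replicates numbered 3 of both groups, the libraries with more PTPRC and CD3E reads, the adjusted p was 0.0158 for IFITM2 and 0.0806 for ISG20.

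Among the other antiviral effectors, BST2 (tetherin, which holds budding viruses at the cell surface) had 78.4, 72.3 and 89.9 CPM in the controls and 63.2, 64.0 and 71.8 CPM in MTR4 KD. The highest MTR4 KD library was just under the lowest control. The log2 fold change was -0.27 (adjusted p = 0.188) with condition only and -0.21 (SE 0.0536, adjusted p = 0.0159) with the alignment class as a covariate. SAMD9, a restriction factor for poxviruses, had 11.4, 12.6 and 11.6 CPM in the controls and 9.34, 9.03 and 7.41 CPM in MTR4 KD. Its log2 fold change was -0.47 (adjusted p = 0.0743) and -0.54 (SE 0.0805, adjusted p = 4.24e-04) in the same 2 fits. Its neighbour SAMD9L had 0.649, 0.622 and 1.34 CPM in the controls and 0.342, 0.494 and 1.27 CPM in MTR4 KD, with replicate 3 highest in each group and the groups overlapping.

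MX1, a GTPase that blocks many RNA viruses and a standard readout of interferon action, had 3.08, 2.33 and 4.63 CPM in the controls and 3.19, 3.13 and 4.24 CPM in MTR4 KD. The groups overlapped fully, and the log2 fold change was 0.08 (SE 0.261, 95% interval of the fold 0.689 to 1.61). MX2 (0.228 to 0.464 CPM) and CMPK2, a mitochondrial nucleotide kinase (0.779 to 1.24 CPM), were low in all libraries and overlapped between the groups. Of the 11 effectors listed, 10 were tested. With condition only 2 fell (against 2.12% of all genes) and none rose (against 1.48%). With the alignment class as a covariate 5 fell (against 10.8% of all genes). The median log2 fold change of the 10 effectors was -0.34.

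**Figure D3:**
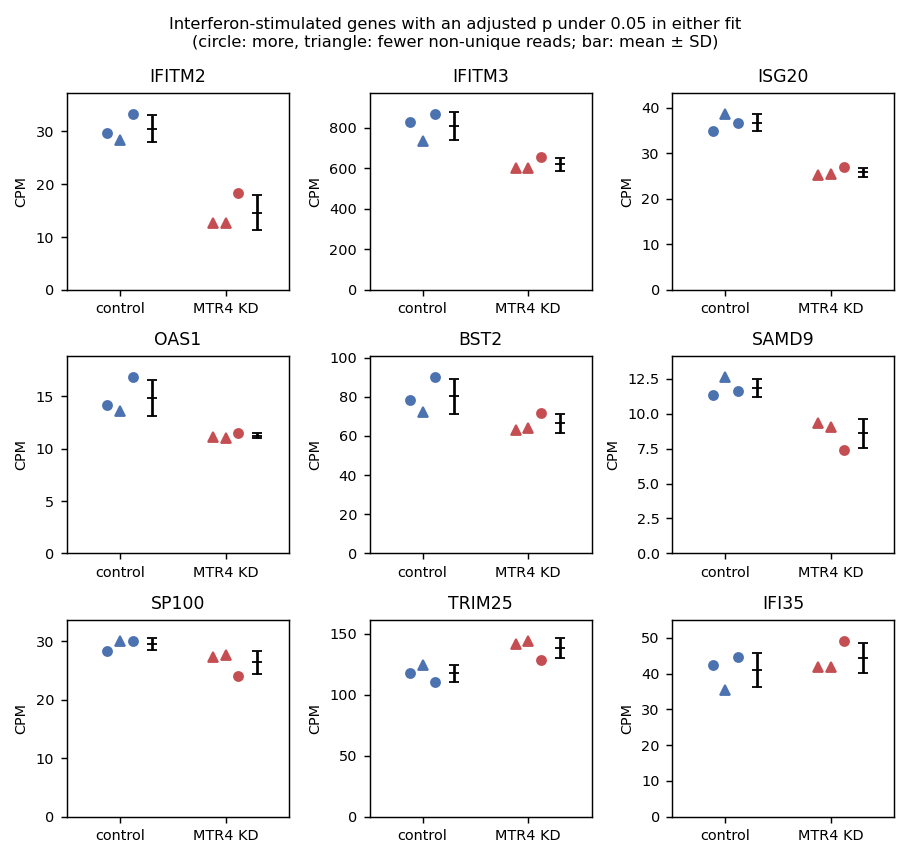
CPM by library of the 9 genes with an adjusted p under 0.05 in either fit, controls in blue and MTR4 KD in red, circles for libraries with more and triangles for libraries with fewer non-unique reads, bars for mean ± SD (n = 3). IFITM2, IFITM3, ISG20, OAS1, BST2, SAMD9 and SP100 lie below the controls without overlap, TRIM25 lies above them, and the IFI35 groups overlap.

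The IFIT proteins bind foreign RNA at its end and are among the first targets of interferon. None of the 4 passed the test in either fit. Over all genes, 1.48% rose and 2.12% fell with condition only, and 9.43% rose and 10.8% fell with the alignment class as a covariate. With only 4 genes, a count of 0 is close to these shares. IFIT1 had 8.53, 8.27 and 10.5 CPM in the controls and 8.72, 8.35 and 7.72 CPM in MTR4 KD. IFIT2 had 1.49, 1.53 and 1.39 CPM in the controls and 1.52, 1.81 and 2.09 CPM in MTR4 KD, the largest log2 fold change above 0 of the list (0.29, SE 0.178, adjusted p = 0.436). IFIT3 had 1.15, 1.53 and 1.36 CPM in the controls and 1.17, 1.15 and 1.71 CPM in MTR4 KD. Thus the groups overlapped for all 4, IFIT5 included (13.7 to 15.4 CPM over all libraries). The summed level of the 4 genes was 26.1 to 27.0 CPM in the controls and 25.2 to 26.4 CPM in MTR4 KD.

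Of the 8 sensors and enzymes of double-stranded RNA, none passed the test with condition only (1.48% of all genes rose and 2.12% fell). With the alignment class as a covariate OAS1 alone fell and none rose (10.8% of all genes fell and 9.43% rose). OAS1, an oligoadenylate synthetase that activates RNase L, had 14.2, 13.6 and 16.8 CPM in the controls and 11.1, 11.1 and 11.5 CPM in MTR4 KD. The groups did not overlap, and the log2 fold change was -0.41 (SE 0.0995, adjusted p = 0.0824) and -0.36 (SE 0.0833, adjusted p = 0.00802) in the 2 fits. OAS3, its larger relative, had 40.4, 40.4 and 44.1 CPM in the controls and 41.6, 40.1 and 37.5 CPM in MTR4 KD, with a log2 fold change of -0.07. OAS2 had 1.04, 0.428 and 1.39 CPM in the controls and 0.391, 0.314 and 1.52 CPM in MTR4 KD. It was high in the 3 libraries with more non-unique reads and low in the others, a log2 difference of 1.81. OASL ranged from 1.42 to 2.85 CPM with overlap.

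IFIH1 (MDA5), which senses long double-stranded RNA, had 14.3, 15.8 and 14.2 CPM in the controls and 16.8, 17.7 and 13.8 CPM in MTR4 KD. DHX58 (LGP2), a helicase that modulates MDA5 and RIG-I, had 0.405, 0.525 and 0.464 CPM in the controls and 0.277, 0.299 and 0.277 CPM in MTR4 KD. The 3 MTR4 KD values of DHX58 were all below the controls, at 17 to 20 reads per library, but the log2 fold change of -0.71 (SE 0.277) had an adjusted p of 0.233. EIF2AK2 (PKR), the kinase that halts translation on double-stranded RNA, had 134, 144 and 129 CPM in the controls and 164, 158 and 129.7 CPM in MTR4 KD. ADAR, which edits adenosine to inosine in double-stranded RNA, had 356, 375 and 351 CPM in the controls and 401, 411 and 344 CPM in MTR4 KD. For IFIH1, EIF2AK2 and ADAR alike, MTR4 KD replicates 1 and 2 were above the controls and MTR4 KD replicate 3 was within or below their range. The same 3 genes were lower with more non-unique reads (log2 differences of -0.24, -0.22 and -0.16), and their log2 fold changes of 0.13, 0.15 and 0.10 became 0.04, 0.07 and 0.04 with the class as a covariate.

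The transcription factors did not pass the test in either fit (0 of 4). Over all genes 1.48% rose and 2.12% fell with condition only, and 9.43% and 10.8% with the class as a covariate. A count of 0 among 4 genes is close to these shares. STAT2, the activating subunit of the interferon-activated complex, had 54.8, 64.8 and 59.7 CPM in the controls and 65.4, 69.2 and 66.7 CPM in MTR4 KD. All MTR4 KD libraries lay above the controls, the lowest of them close to the highest control (log2 fold change 0.17, SE 0.0748, adjusted p = 0.286). IRF9, which gives the complex its DNA binding, had 0.470, 0.566 and 0.813 CPM in the controls and 0.864, 0.838 and 0.555 CPM in MTR4 KD. IRF1 had 10.2, 9.24 and 10.8 CPM in the controls and 8.31, 8.43 and 9.41 CPM in MTR4 KD. IRF7, which amplifies interferon gene expression, had 0.989, 0.318 and 1.06 CPM in the controls and 0.522, 0.374 and 0.783 CPM in MTR4 KD, again high in the libraries with more non-unique reads. Its log2 fold change was -0.49 with condition only and 0.00 with the class as a covariate.

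ISG15, the ubiquitin-like modifier and after IFITM3 and LGALS3BP the highest gene of the list per kilobase, had 82.6, 68.4 and 78.8 CPM in the controls and 78.8, 74.5 and 80.2 CPM in MTR4 KD. The MTR4 KD values lay inside the range of the controls, and the log2 fold change was 0.02 (95% interval -0.17 to 0.22). USP18, which removes ISG15 and restrains receptor signalling, had 7.69, 8.04 and 9.29 CPM in the controls and 8.69, 8.73 and 6.43 CPM in MTR4 KD. TRIM25, a ubiquitin ligase that acts on RIG-I, had 117, 124 and 111 CPM in the controls and 141, 144 and 129 CPM in MTR4 KD. Its groups did not overlap. The log2 fold change was 0.23 (SE 0.0730, adjusted p = 0.149) with condition only and 0.19 (SE 0.0418, adjusted p = 0.00691) with the class as a covariate. HERC5, the ligase that attaches ISG15, its relative HERC6, and TRIM22 overlapped between the groups, with log2 fold changes of -0.17, -0.06 and 0.03.

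PARP9, DTX3L and PARP14 are a group of ADP-ribosylation factors of which PARP9 and DTX3L form a complex. They did not pass the test in either fit, with log2 fold changes of 0.05, 0.09 and 0.15. Of all genes 1.48% rose and 2.12% fell with condition only, and 9.43% and 10.8% with the class as a covariate. PARP9 and DTX3L, whose starts share the core printed above, were both above the controls in MTR4 KD replicates 1 and 2 and below them in MTR4 KD replicate 3. IFI6, a mitochondrial protein that delays cell death, had 52.7, 48.0 and 54.9 CPM in the controls and 51.9, 55.1 and 50.4 CPM in MTR4 KD. IFI27 had 0.762, 0.994 and 1.03 CPM in the controls and 0.929, 1.11 and 0.979 CPM in MTR4 KD. Neither of these 2 separated the groups. IFI35 had 42.5, 35.5 and 44.6 CPM in the controls and 41.7, 42.0 and 49.1 CPM in MTR4 KD. It overlapped between the groups as a whole and was higher in MTR4 KD within each class (log2 differences of 0.17 and 0.23). Its log2 fold change was 0.12 (adjusted p = 0.620) with condition only and 0.20 (SE 0.04998, adjusted p = 0.0115) with the class as a covariate.

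SP100, a component of PML nuclear bodies, had 28.3, 30.1 and 30.1 CPM in the controls and 27.3, 27.7 and 24.2 CPM in MTR4 KD. The groups lay apart by a narrow margin, and the log2 fold change was -0.16 (adjusted p = 0.332) and -0.20 (SE 0.0600, adjusted p = 0.0325) in the 2 fits. PSMB8 and PSMB9, catalytic subunits of the immunoproteasome, had log2 fold changes of -0.42 and -0.16 with adjusted p-values of 0.198 and 0.661 in edgeR's quasi-likelihood test. PSMB8 was below the controls in all 3 MTR4 KD libraries (1.35 to 1.47 against 1.77 to 1.93 CPM) and PSMB9 overlapped. LGALS3BP, a secreted glycoprotein, had 314 to 383 CPM in the controls and 306 to 317 CPM in MTR4 KD.

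The 5 genes under the filter are strongly induced by interferon in many cells, and here they had few reads. RSAD2 (viperin) had 2, 1 and 2 reads in the controls and 5, 3 and 6 reads in MTR4 KD. IFI44 had 0, 0 and 3 reads in the controls and 2, 6 and 10 reads in MTR4 KD. XAF1 had 3, 0 and 4 reads and 1, 5 and 6 reads. The other 2 were high in a single library. IFI44L had 5, 11 and 8 reads in the controls and 1, 5 and 30 reads in MTR4 KD, and EPSTI1 had 5, 6 and 7 reads and 1, 3 and 29 reads. The sum over the 5 genes was 15, 18 and 24 reads in the controls and 10, 22 and 81 reads in MTR4 KD. In this sum only MTR4 KD replicate 3 stood apart. RSAD2 had more reads in every MTR4 KD library than in any control, at 1 to 6 reads per library. IFI44 and XAF1 had more reads than any control in MTR4 KD replicates 2 and 3 only. MTR4 KD replicate 3 is also 1 of the 2 libraries with more PTPRC and CD3E reads, and whether these go together was not tested.

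**Figure D4:**
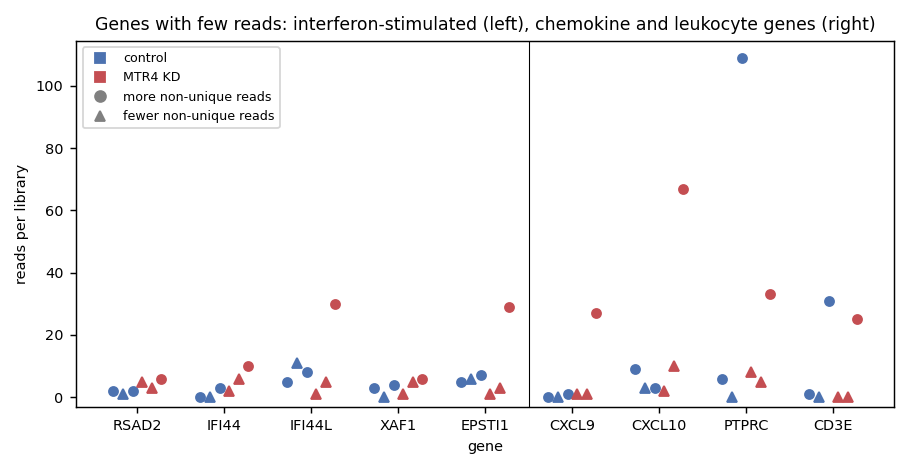
Reads per library of the 5 genes under the filter (left of the line) and of CXCL9, CXCL10, PTPRC and CD3E (right), with colours for the groups and symbols for the alignment class. IFI44L (30), EPSTI1 (29), CXCL9 (27) and CXCL10 (67) are high in MTR4 KD replicate 3 alone, and PTPRC and CD3E are high in replicate 3 of both groups.

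The alignment class, as a term of the fit, passed an adjusted p of 0.05 for 13 of the 42 genes (31%), close to its share over all genes (31.5%). It passed for 9 genes that were higher with more non-unique reads (21.4%, against 16.2% of all genes), BST2, IFI35, IFITM2, IFITM3, IRF7, ISG15, MX1, OAS2 and SAMD9L. It passed for 4 that were lower (9.52%, against 15.3% of all genes), ADAR, EIF2AK2, IFIH1 and TRIM25. The control group held 2 libraries with more non-unique reads and MTR4 KD held 1, so the fits with and without the class weigh these genes differently.

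The tested genes with and without an ISRE core are set side by side as a description. Among the 21 tested genes with a core, none rose and 1 fell (ISG20) with condition only, the median log2 fold change was -0.02 and the range -0.51 to 0.15. With the alignment class as a covariate 4 of these fell and none rose. Among the 12 tested genes whose windows held no core, none rose or fell with condition only, the median was 0.00, and with the class as a covariate 2 rose and 2 fell. Over all genes, 1.48% rose and 2.12% fell with condition only, and 9.43% rose and 10.8% fell with the class as a covariate. IFITM2 was among the 9 genes without a matched window.

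The interferon genes on the list had almost no counted reads. Of the 14 ligand genes listed, among them IFNB1, IFNG, IFNA1 and IFNL2, 12 had no read in any library. IFNA6 and IFNL1 had 1 read each in MTR4 KD replicate 2. A count of 0 allows a level of up to 0.0414 to 0.0497 CPM in a library, and this limit covers counting error only. Reads that align to several places were not counted, so the limit does not hold for ligand genes whose reads align to several of them. The interferon-induced chemokine CXCL10 had 9, 3 and 3 reads in the controls and 2, 10 and 67 reads in MTR4 KD, and CXCL9 had 0, 0 and 1 reads and 1, 1 and 27 reads. CXCL11 had at most 3 reads. Of the 4 chemokines only CCL5 was tested, and it did not pass (log2 fold change -1.41, SE 0.645, adjusted p = 0.297 in edgeR's quasi-likelihood test). As with IFI44L and EPSTI1, the reads of CXCL9 and CXCL10 came mostly from MTR4 KD replicate 3.

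In the rest of the pathway 78 genes were listed and 57 were tested. With condition only, edgeR's quasi-likelihood test called 1 higher (1.75%, against 1.48% of all genes) and 0 lower (against 2.12%). At an unadjusted p under 0.05, 5 were higher (8.77%, against 8.93% of all genes) and 9 lower (15.8%, against 9.84%). DESeq2's Wald test called 4 lower (against 3.63% of all genes) and limma-voom 0 (against 2%). The gene that rose was SAMHD1, of the list on RNA decay and nucleic acid clearance, which destroys deoxynucleotides and restricts viruses (chromosome 20, positions 36889773 to 36951708 on GRCh38.p14). SAMHD1 had 94.9, 104 and 95.9 CPM in the controls and 182, 197 and 167 CPM in MTR4 KD. All 3 MTR4 KD values were above every control, with a log2 fold change of 0.89 (SE 0.0794, adjusted p = 0.00206 in edgeR's quasi-likelihood test) and 0.81 and 0.86 within the classes. With the alignment class as a covariate, 4 of the 57 rose (7.02%, against 9.43% of all genes) and 12 fell (21.1%, against 10.8%).

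**Figure D5:**
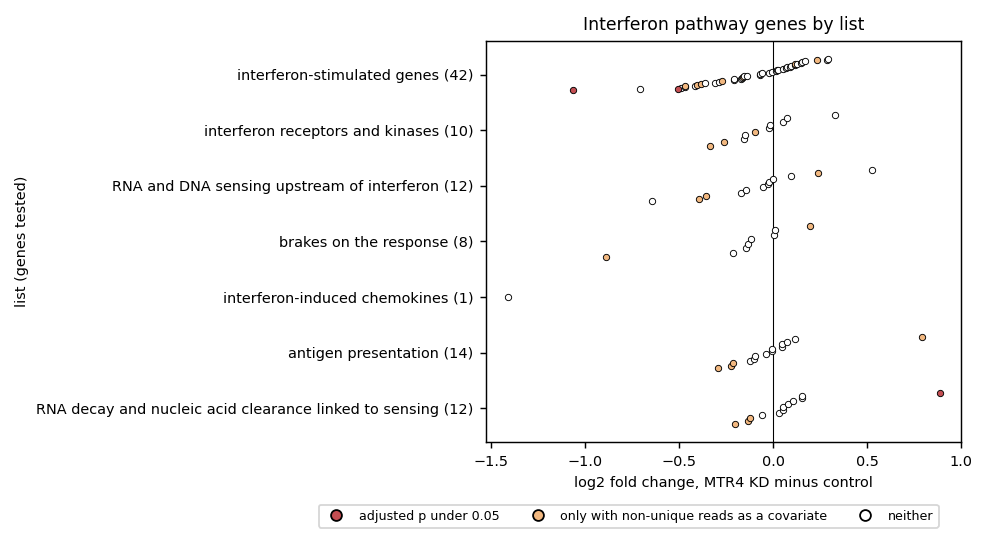
Each point is the log2 fold change of a tested gene, MTR4 KD minus control, with 1 row per list, the number of tested genes in brackets, and offsets within a row only to separate points. Red points passed an adjusted p of 0.05 with condition only (IFITM2, ISG20 and SAMHD1), and the ends of the range among these 3 are IFITM2 at -1.06 and SAMHD1 at 0.89. Orange points passed only with the alignment class (more or fewer non-unique reads) as a covariate.

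Of the 10 receptor and kinase genes, 3 fell with the class as a covariate, IL10RB (-0.38 on the log2 scale), IFNGR2 (-0.20) and JAK1 (-0.17), and none rose. In that fit 9.43% of all genes rose and 10.8% fell. Of the 12 tested genes of RNA and DNA sensing, RIGI, the RIG-I sensor, and IKBKE, a kinase that activates IRF3, fell in that fit (-0.36 and -0.40 on the log2 scale, adjusted p = 0.00533 and 0.00329), and MAVS, their adaptor on mitochondria, rose (0.19, adjusted p = 0.0230). RIGI had 15.5, 16.4 and 18.1 CPM in the controls and 13.3, 12.9 and 12.8 CPM in MTR4 KD. MAVS had 216, 213 and 212 CPM in the controls and 263, 270.4 and 224 CPM in MTR4 KD. The MTR4 KD values of both genes did not overlap with the controls, and the adjusted p-values with condition only were 0.0728 and 0.173.

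Of the 8 brakes on the response, SOCS3 fell (-0.68, adjusted p = 0.00909) and the phosphatase PTPN2 rose (0.22, adjusted p = 0.00766) with the class as a covariate. Of the 14 antigen presentation genes, 3 fell in that fit, among them HLA-E (-0.29) and HLA-B (-0.21), and NLRC5, the activator of class I genes, rose (0.90, adjusted p = 0.0469) from 0.562 ± 0.0214 to 0.975 ± 0.323 CPM. HLA-C and B2M, the light chain of the class I complex, had log2 fold changes of -0.01 and -0.04. In the list of RNA decay and clearance, RNASEH2A (-0.20), PNPT1 (-0.19) and SKIC8 (-0.18) fell in that fit beside the rise of SAMHD1. Counts in these lists are to be read against the 9.43% of all genes that rose and the 10.8% that fell in that fit.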

How the data were processed

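RNA-seq was made of 3 control and 3 MTR4 KD libraries of PLC/PRF5 cells, grouped by the sample labels. The authors aligned reads to GRCh38 with HISAT2 2.1.0, and the deposited files hold raw counts of reads per Ensembl gene as HTSeq writes them, without normalization. The strand setting of the counting is not given in the sources used here, so reads of overlapping and antisense genes cannot be told apart. The rows of reads not assigned to a gene were left out of library sizes and tests, and the non-unique row among them, which is 14.8% to 37.5% of all entries, set the alignment class with a limit of 30%. The submitters' processing notes also name DESeq2.

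Symbols came from a GENCODE gene table, which names 42395 of the 60675 genes, and positions and promoter windows from RefSeq on GRCh38.p14. Counts were compared in R 4.3.3 with edgeR 4.0.16 (filterByExpr with a minimum of 10, TMM, quasi-likelihood test, no covariate beside the condition, Benjamini-Hochberg adjustment over 18075 genes). DESeq2 1.42.0 and limma 3.58.1 were used for alternatives, and tables and plots were made with pandas 2.3.3 and matplotlib 3.10.9 under Python 3.11.15. The procedure was tested on simulated data that held no difference between the alignment classes, so that test does not cover such differences. CPM values are counts divided by the TMM-scaled library size. Libraries of 1 group differed by more than sampling noise, with a chi-square per degree of freedom of at least 4.54.

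The rule for the genes uses no measured value, but the genes, the other lists and the alignment class were chosen with earlier results of these data known. The rule on names covers every gene that passed an adjusted p of 0.05 in either fit, a core of classical members whatever their value, genes under the filter with their counts, and at most 3 genes per list and direction from the other lists. HLA-C, B2M and the genes named only by a range were added to it after their values were seen. The values of some genes that the rule covers are not reported here. PECAM1 was not matched by symbol and was not analysed here. No set test was run.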

Additional observations from a re-analysis of the deposited data

How the results depend on the processing

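Among the 42 tested genes of the list, the number that fell (2) was 5 with DESeq2's Wald test and 7 with the alignment class as a covariate. The number that rose (0) was 2 with that covariate. Leaving out each library in turn gave 0 to 3 that fell, 0 to 1 with a fold change over 2 also required, and 0 that rose. With the covariate, 0 passed both thresholds. Without the replicates numbered 3 of both groups, a choice made after the data were seen, 1 fell, and MTR4 had a log2 fold change of -0.77 with an adjusted p of 0.0690. Among the 57 other pathway genes, the number that rose (1) was 4 with the covariate and 1 to 2 with each library left out. The number that fell (0) was 2 with a filter of at least 1 CPM, 4 with the Wald test, 12 with the covariate and 0 to 1 with each library left out. The median log2 fold change of the 42 genes ran from -0.12 to -0.00408 with each library left out, and was -0.14 and 0.0234 within the classes with more and fewer non-unique reads. Over all genes, 650 were called with condition only (267 higher, 383 lower), 1705 higher and 1944 lower with the covariate, and 472 higher and 656 lower with the Wald test. Leaving out control replicates 1 or 3 or MTR4 KD replicates 1 or 2 lowered the counts with condition only to 52 to 65 higher and 85 to 118 lower. Without control replicate 2 there were 300 higher and 503 lower, and without MTR4 KD replicate 3 there were 273 and 349. In each of these 2 settings 1 group held a single alignment class. The other scalings moved the median of all genes by under 0.1 and changed neither count of the 42 by more than 1.

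Whether the replicate numbers pair the libraries could not be told from their correlation. The correlation of deviations between libraries with the same number was -0.24, 0.32 and 0.35 for numbers 1, 2 and 3. The libraries numbered 1 differed in alignment class, while those numbered 2 and those numbered 3 shared a class. With the replicate number as a block, 3 of the 42 genes fell, 0 rose, and 1 of the other pathway genes fell. Over all 18075 genes, 342 rose and 515 fell in that fit. IFITM3 passed in that fit (adjusted p = 0.0293).

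The direction of several genes that passed no test changed with the setting. IFIT3 had a log2 fold change of 0.00455 with total counts, 0.00144 with upper quartile scaling and 0.0236 with the covariate, and -0.21 to 0.10 with each library left out. IRF7 had 0.000308 with the covariate. Without the replicates numbered 3, IFIT1 had 0.0227, OAS3 0.0154 and USP18 0.15. With each library left out, the range was -0.0577 to 0.0789 for ISG15, -0.15 to 0.0641 for USP18, -0.13 to 0.38 for MX1, -0.0410 to 0.0587 for IFI6 and -0.00837 to 0.19 for IFI27. The cause was not tested. At 0 to 30 reads per library, RSAD2, IFI44, IFI44L, XAF1 and EPSTI1 limit what can be said of the genes most strongly induced by interferon.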
